A study of Mus musculus with 6 samples.

Results

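Transforming growth factor β (TGF-β) is secreted in a latent form, and the genes described here encode the ligands and the proteins that store or release them. They are the ligands Tgfb1, Tgfb2 and Tgfb3, the latent TGF-β binding proteins Ltbp1, Ltbp2, Ltbp3 and Ltbp4, the activators Thbs1 and Itgb8, and the surface anchor Lrrc32. All 10 were found by their Ensembl identifiers, under GENCODE M21 symbols, among the 53465 genes of the count table. The series profiled ribosome-protected fragments, the stretches of mRNA that a ribosome covers and so protects from RNase I, in ID8 cells, a cancer line from mouse ovarian surface epithelium. Its 6 libraries were 3 labelled WT and 3 labelled KO. The series design names a control guide (sgNC) and a guide that depletes NAT10 (sgNat10), and WT is read here as the former and KO as the latter, since no label ties the names together. NAT10 is the enzyme that acetylates cytidine in RNA. Cells of both groups received cycloheximide at 100 µg/mL for 2 minutes before lysis to hold ribosomes in place. The series title also names cisplatin and a TGF-β inhibitor, but the labels of these 6 libraries give neither treatment. The sources used here do not say whether the KO cells are a clone or a pool. Nor do they say whether replicates came from separate cultures. The p-values therefore describe the spread among these libraries, which may be technical. The comparison asks whether KO and WT cells differ in the fragments of the genes that hold TGF-β latent or set it free. No total-RNA library is among these 6. For every gene below, a change in mRNA amount and a change in ribosome loading therefore cannot be told apart.

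As background, a TGF-β precursor is cut by furin-type proteases, and its propeptide stays wrapped around the mature ligand as a latent complex. A latent TGF-β binding protein (LTBP) is joined to the propeptide in the cell and ties the complex to the extracellular matrix; LTBP-2 is the member of that family not known to carry latent TGF-β. The complex can be opened by αv integrins, which grip an arginine-glycine-aspartate motif in the propeptide, by thrombospondin 1, or by proteases, and GARP, the product of Lrrc32, displays it on the surface of regulatory T cells and platelets.

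The windows below are printed because they hold the codons at which a latent ligand is gripped or cut, and the ligands differ in them. Each was read from the GENCODE M21 transcript on GRCm38, 5′ to 3′ on the coding strand, and capitals mark the codons searched for. The first pair holds the integrin-binding arginine-glycine-aspartate codons.
Tgfb1, chr7:25696989-25697174, plus strand: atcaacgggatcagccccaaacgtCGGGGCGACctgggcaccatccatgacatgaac
Tgfb3, chr12:86062141-86062197, minus strand: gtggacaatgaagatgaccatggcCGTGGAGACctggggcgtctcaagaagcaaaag
The Tgfb1 window runs across the junction of exons 4 and 5, so its coordinates include an intron, and the Tgfb3 window lies in exon 5. The motif stands at codons 244 to 246 of the 390 of Tgfb1 and 261 to 263 of the 412 of Tgfb3. The 414 codons of Tgfb2 held no such run.

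The next windows hold the furin-type site, arginine, any codon, lysine or arginine, and arginine, at which the mature ligand is released from its propeptide.
Tgfb1, chr7:25697211-25697270, plus strand: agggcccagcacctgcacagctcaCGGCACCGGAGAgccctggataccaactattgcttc
Tgfb2, chr1:186630612-186630671, minus strand: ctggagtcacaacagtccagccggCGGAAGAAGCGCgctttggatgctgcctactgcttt
Tgfb3, chr12:86062030-86062089, minus strand: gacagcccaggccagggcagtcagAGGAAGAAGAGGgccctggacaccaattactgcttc
All 3 sites lie in exon 5 and are followed by 112 codons. The last window is the lysine-arginine-phenylalanine-lysine stretch of Thbs1, known for its part in opening the latent complex.
Thbs1, chr2:118117627-118118190, plus strand: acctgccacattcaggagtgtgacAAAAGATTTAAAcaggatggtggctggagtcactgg
It stands at codons 431 to 434 of 1171 and runs across the junction of exons 8 and 9. In the same reading frame search over 21492 principal mouse coding sequences, the integrin-binding run occurred in 7.18%, the furin-type run in 23.8% and the thrombospondin run in 0.400%, so a match by itself is a description and not a site.

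Total gene counts ran from 1687466 to 3126208 per library. Apart from single reads, the genes of a library piled up at a second count of 15 to 60, called the modal count here, and a count below it is hard to tell from a single amplified fragment. Whether that peak is the size of a single amplified fragment was not tested. Nat10 itself, the targeted gene, was counted 168, 128 and 292 times in the WT libraries and 315, 133 and 445 times in the KO libraries, with no difference called (log2 fold change -0.074, SE 0.48, edgeR adjusted p = 1.0). The labels do not say where the guide cuts. Directions below therefore rest on the library labels, since these counts show no loss of Nat10. Of 10 epithelial and mesothelial markers, Krt8, Krt18, Krt19, Msln, Wt1, Upk3b and Upk1b were counted in all 6 libraries, Krt8 with 1 count in KO replicate 1. Cdh1, the epithelial cadherin, was counted 50, 14 and 0 times in the WT libraries and not at all in KO, Krt7 had 6 counts in 1 WT library, and Epcam was at 0. The summed level of these 10 was 6225 to 6675 CPM in WT and 4681 to 5337 CPM in KO, with 3 of the 7 tested called by edgeR at an adjusted p under 0.05, 1 higher and 2 lower, against 0.402% of all genes tested. CPM are counts scaled by the normalised library size in the usual way (edgeR, TMM), and values are given in the order of replicates 1, 2 and 3. All 5 platelet markers were at 0, and 9 of 10 leukocyte markers had at most 2 counts in any library. The exception was Cd68, with 10 and 29 counts in WT replicates 1 and 2. Of 6 fibroblast and endothelial markers 4 had at most 2 counts in any library, and their sum did not exceed 6.0 CPM.

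Of the ligands, Tgfb2 and Tgfb3 were counted in every library and Tgfb1 was near 0. Tgfb1 (chromosome 7, 25687002 to 25705077), the ligand most studied in cancer, was counted 0, 1 and 0 times in the WT libraries and 2, 0 and 0 times in the KO libraries, below the filter of the test. Those are 3 counts among 13549192. Tgfb2 (chromosome 1, 186622792 to 186705989) was counted 35, 28 and 81 times in the WT libraries and 145, 38 and 53 times in the KO libraries, equal to 21.3, 14.0 and 46.8 CPM against 56.6, 16.3 and 16.4 CPM. WT replicate 3 and KO replicate 1 were the high libraries, and the groups overlapped. The KO counts of replicates 2 and 3 lay below the modal counts of those libraries.

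Tgfb3 (chromosome 12, 86056745 to 86079041) was counted 30, 185 and 39 times in the WT libraries and 60, 119 and 72 times in the KO libraries, equal to 18.2, 92.4 and 22.5 CPM against 23.4, 51.0 and 22.3 CPM. The replicate numbered 2 was the high one in each group, and the groups overlapped. Log2 fold changes, KO minus WT, were 0.12 for Tgfb2 (95% interval -2.30 to 2.54) and -0.46 for Tgfb3 (-2.37 to 1.44). With this spread between libraries, changes of several fold lay within the intervals, for Tgfb2 in either direction. Both signs turned without single libraries: Tgfb2 stood at -0.74 without KO replicate 1, -0.19 without WT replicate 2 and -0.031 without WT replicate 1, while leaving out WT replicate 2 put Tgfb3 at 0.66. The 3 ligands together made up 71.9 ± 33.8 CPM on average in WT libraries and 62.3 ± 21.4 CPM in KO libraries (SD, n = 3). Each library is a bulk lysate, so fewer cells with an mRNA and fewer fragments per cell cannot be told apart. Tgfb3 overlaps 5149 bases of Ttll5 on the opposite strand, which had 8 to 124 counts per library, and since the strand setting of the counting is not given, fragments in that stretch cannot be assigned with certainty.

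The binding proteins carried far more fragments than the ligands, and nearly all of these came from Ltbp1 and Ltbp3. These counts are not scaled for coding length, which is 3.76 to 5.36 kb for the binding proteins and 1.17 to 1.24 kb for the ligands. Levels per kilobase are given further below. Ltbp1 (chromosome 17, 75005568 to 75392512), a main matrix carrier of latent TGF-β, was counted 417, 496 and 226 times in the WT libraries and 1210, 868 and 1400 times in the KO libraries. Its levels were 254, 248 and 131 CPM in WT and 472, 372 and 434 CPM in KO, so every KO library lay above every WT library. WT replicate 3 was the lowest of all. The means were 211 ± 69.4 CPM for WT libraries and 426 ± 50.7 CPM for KO libraries (SD, n = 3). That is a 2.02-fold difference (95% interval 1.32 to 3.09; log2 1.02, SE 0.29), which did not pass over all genes tested (edgeR quasi-likelihood unadjusted p = 0.0031, adjusted p = 0.27). Over the 14 other settings the adjusted p ran from 0.0055 with DESeq2, which called it, to 0.71 without WT replicate 3. The log2 difference without that library was 0.76. Divided by the modal count, its counts were 27.8, 23.6 and 5.79 in WT and 28.8, 18.9 and 23.3 in KO. These values, not scaled for library size, overlapped between groups. The fit on counts divided by the modal count put the log2 difference at 0.80 (edgeR adjusted p = 0.17).

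Ltbp3 (chromosome 19, 5740904 to 5758532), a carrier known for its part in bone and teeth, was counted 481, 474 and 395 times in the WT libraries and 684, 886 and 792 times in the KO libraries. Normalised, these were 292, 237 and 228 CPM in WT and 267, 379 and 246 CPM in KO. KO replicate 2 was high and the other KO libraries lay within the WT range. The log2 fold change was 0.24 (95% interval -0.35 to 0.82, edgeR adjusted p = 1.0), so a change beyond 1.76-fold upwards lay outside the interval.

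Ltbp4 and Ltbp2 were scarce. Ltbp4 (chromosome 7, 27305136 to 27337692), a binding protein important for elastic fibres, was counted 27, 2 and 46 times in the WT libraries and 133, 0 and 221 times in the KO libraries, or 16.4, 1.0 and 26.6 CPM against 51.9, 0 and 68.6 CPM. The replicate numbered 2 was the low one in each group. The count of 0 in KO replicate 2 allows up to 1.28 CPM (3 counts, counting error only). That limit takes each count as a separate fragment. If the modal count of 46 in that library stands for a single amplified fragment, the true limit is higher. The groups overlapped, and the log2 fold change of 1.45 had a 95% interval from -1.99 to 4.90. Ltbp2 (chromosome 12, 84783212 to 84876532) had 20 counts in WT replicate 1 and 0 in the other 5 libraries and was not tested. The 4 binding proteins summed to 482 ± 94.5 CPM in WT and 763 ± 23.7 CPM in KO, with 386 to 575 CPM in WT libraries and 749 to 791 CPM in KO libraries. Ltbp1 made up most of that gap.

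**Figure D1:**
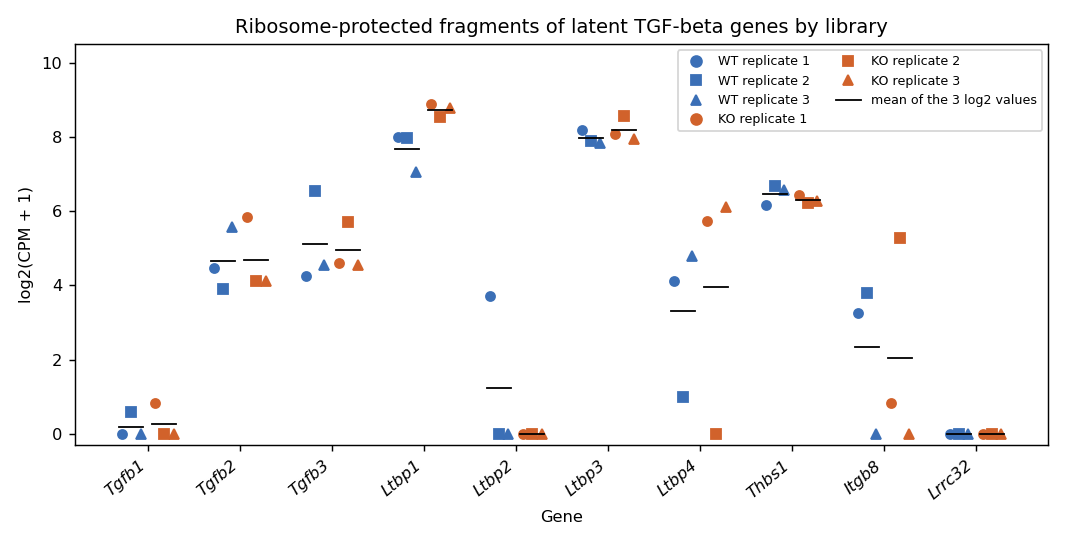
Level of each gene in each library, as log2(CPM + 1) on the vertical axis, with genes along the horizontal axis; colours mark WT and KO, shapes mark the replicate number and lines mark the mean of the 3 log2 values. The KO points of Ltbp1 lie above all its WT points, the points of Thbs1 overlap in a narrow band, and Tgfb1 and Lrrc32 sit at or near 0.

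Among the activators only Thbs1 was counted in every library. Thbs1 (chromosome 2, 118111876 to 118127133), the matrix protein thrombospondin 1, was counted 117, 203 and 162 times in the WT libraries and 219, 172 and 248 times in the KO libraries. Its levels were 71.1, 101 and 93.7 CPM in WT and 85.4, 73.6 and 76.9 CPM in KO, and all KO values lay within the WT range. The coefficient of variation was 17.7% in WT and 7.73% in KO. At a mean of 5.78 modal counts per library, so small a spread does not show a precise level. The log2 fold change was -0.17 (SE 0.44, 95% interval -1.12 to 0.78, edgeR adjusted p = 1.0).

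Itgb8 (chromosome 12, 119158022 to 119238802), the β8 chain that pairs with αv in an integrin that activates TGF-β, was counted 14, 26 and 0 times in the WT libraries and 2, 88 and 0 times in the KO libraries. Only WT replicate 2 and KO replicate 2 were at or above their modal counts. Its log2 fold change of 0.83 had a 95% interval from -4.69 to 6.35 and became -4.04 without KO replicate 2, so no direction can be given. Lrrc32 (chromosome 7, 98489283 to 98502181), which encodes GARP, had 0 counts in all 6 libraries. Over the 13549192 counts this allows up to 0.222 CPM (3 counts over all libraries, counting error only). That limit takes each count as a separate fragment. If the modal counts of 15 to 60 per library stand for single amplified fragments, the true limit is higher. The leukocyte and platelet markers, of cells that use GARP, were likewise at or near 0.

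Levels were compared between genes per kilobase of the principal coding sequence, which is 1.17 to 5.36 kb long in this set. On that scale Ltbp1 averaged 79.1 ± 32.3 CPM per kb and Ltbp3 73.1 ± 14.9 CPM per kb over the 6 libraries (SD). Their order did not hold across libraries, since Ltbp1 exceeded Ltbp3 in 2 of 6. Then came Tgfb3 at 31.0 ± 23.5, Thbs1 at 23.8 ± 3.42 and Tgfb2 at 23.0 ± 14.8 CPM per kb. Ltbp3 exceeded Tgfb3 in 5 of 6 libraries, while Tgfb3 exceeded Thbs1 in 2 of 6 and Thbs1 exceeded Tgfb2 in 4 of 6, so these 3 differ by less than their spread. Tgfb2 exceeded Ltbp4, at 5.48 ± 5.56 CPM per kb, in 5 of 6, and Ltbp4 exceeded Itgb8, at 4.34 ± 6.33 CPM per kb, in 3 of 6. Among 8087 tested genes with a coding length, the median was 25.7 CPM per kb, and 20.6% lay above Ltbp1, 22.2% above Ltbp3 and 52.5% above Thbs1.

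**Figure D2:**
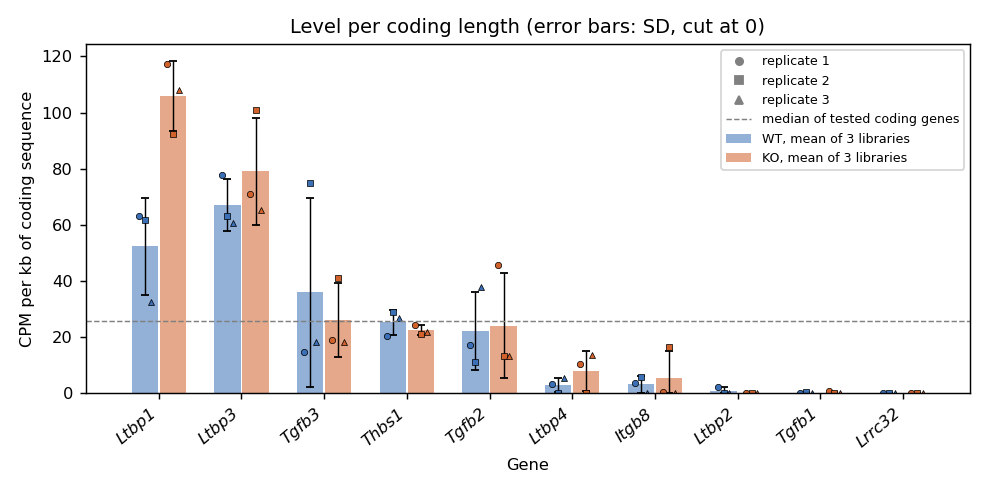
Mean CPM per kilobase of coding sequence (bars, from 0) in WT and KO with the SD over 3 libraries (error bars, cut at 0) and each library as a point; genes are ordered by their mean over the 6 libraries and the dashed line is the median of tested coding genes, 25.7. Ltbp1 and Ltbp3 stand above the line in all 6 libraries, and Ltbp4, Itgb8, Ltbp2, Tgfb1 and Lrrc32 stand below it.

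In the comparison of KO with WT, 7 of the 10 genes passed the filter on low counts and none of the 7 was called by edgeR at an adjusted p under 0.05, against 0.402% of the 8200 genes tested (0.183% higher and 0.22% lower in KO). At an unadjusted p under 0.05 there was 1, Ltbp1, where 6.49% of all tested genes passed. DESeq2 also called 1, Ltbp1, against 2.5% of the genes it tested. Ltbp1 was also the 1 gene of the 7 whose groups did not overlap, a separation found in 14.9% of all tested genes 6.94% with KO higher and 7.93% with KO lower. Of the 7, 5 had positive fold changes, with a median of 0.24 against -0.016 over all genes tested. Leaving out any 1 library kept the sign of Ltbp1, Ltbp3, Ltbp4 and Thbs1, with Ltbp1 between 0.76 and 1.17 and Ltbp3 between 0.03 and 0.35 on the log2 scale.

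**Figure D3:**
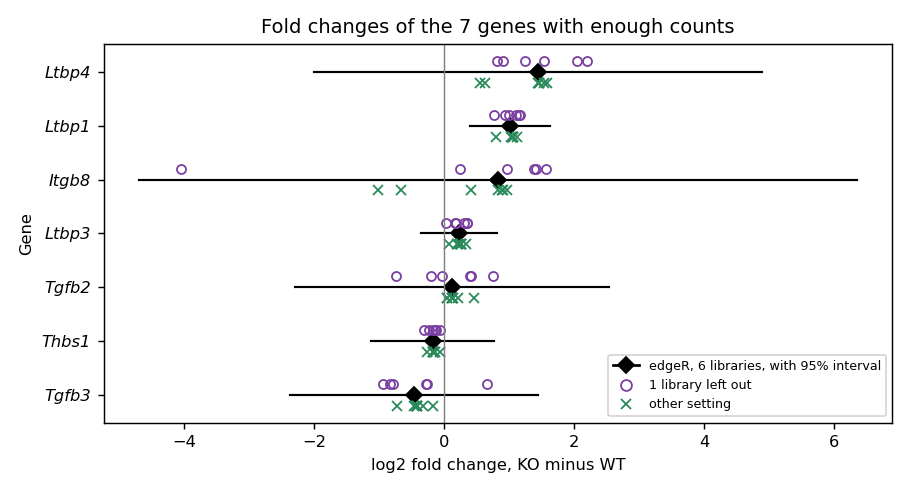
Log2 fold change, KO minus WT, of the 7 tested genes: black diamonds with 95% intervals are the edgeR fit on 6 libraries, open circles the fits with 1 library left out and crosses the other settings. The interval of Ltbp1, 0.40 to 1.63, lies above 0, those of the other 6 genes include 0, and the circles of Tgfb2, Tgfb3 and Itgb8 fall on both sides.

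Ratios of 2 genes within a library need no normalisation between libraries. The 3 ratios below were chosen after the values were seen. Per coding base, the ratio of Ltbp1 to Ltbp3 was 0.810, 0.978 and 0.535 in WT and 1.65, 0.915 and 1.65 in KO. KO replicate 2 lay within the WT range and the other KO libraries above it (1.81-fold by geometric mean, exact two-sided permutation p = 0.2). The ratio of Ltbp1 to Thbs1 was 3.11, 2.13 and 1.22 in WT and 4.82, 4.41 and 4.93 in KO. All KO values lay above all WT values (2.35-fold, exact permutation p = 0.1, the smallest that 3 against 3 libraries allow). The ratio of Tgfb3 to Tgfb2 was 0.861, 6.64 and 0.484 in WT and 0.416, 3.15 and 1.37 in KO, with the replicate numbered 2 high in both groups (exact permutation p = 0.9). Adjusted over the 3 ratios, the permutation p-values were 0.3, 0.9 and 0.3 for Ltbp1 to Ltbp3, Tgfb3 to Tgfb2 and Ltbp1 to Thbs1. The adjustment does not cover the choice of these ratios among other possible pairs.

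**Figure D4:**
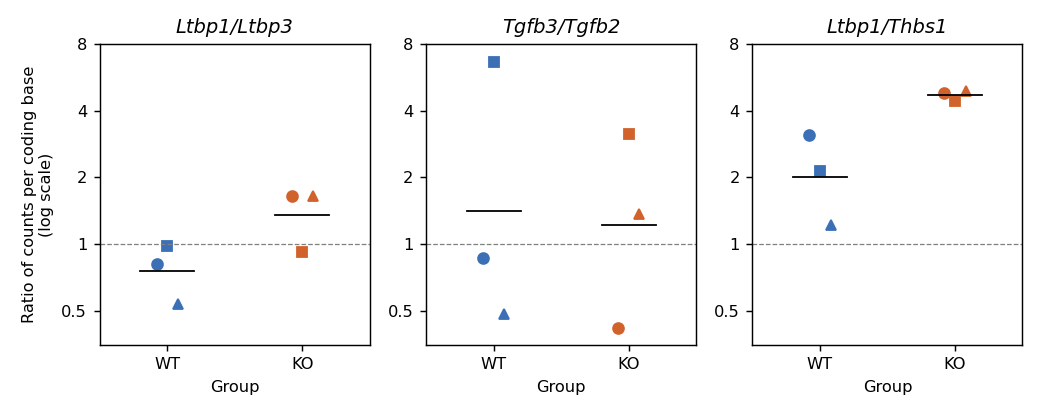
Ratio of counts per coding base of 2 genes in each library, on a log scale, for 3 pairs of genes; circles, squares and triangles are replicates 1, 2 and 3, lines are geometric means and the dashed line is a ratio of 1. The ratio of Ltbp1 to Thbs1 runs from 1.22 to 3.11 in WT and from 4.41 to 4.93 in KO, while the other ratios overlap between groups.

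The other genes of latent TGF-β handling were read from 6 lists holding 81 different genes, of which 44 were tested and 3 called, 1 higher and 2 lower in KO, against 0.402% of all genes tested (0.183% higher and 0.22% lower). The lists were chosen with earlier results of these data known. Their shares, set beside those of all genes, are therefore a description and no test of the lists. Among the matrix partners of latent complexes 5 of 14 were tested, with a median log2 fold change of 0.67 against -0.016 over all genes. The called one was Tgm2, the transglutaminase that can crosslink LTBPs into the matrix, which fell from 259, 249 and 243 CPM in WT to 0, 3.42 and 1.55 CPM in KO (log2 fold change -7.22, SE 0.70, edgeR adjusted p = 0.00021). Its KO counts of 0, 8 and 5 lay below the modal counts, so the size of that fall is uncertain. Fn1, the fibronectin network on which LTBP1 is first laid down, averaged 283 ± 42.6 CPM over the WT libraries and 578 ± 133 CPM over the KO libraries (log2 fold change 1.03, SE 0.25, edgeR adjusted p = 0.11). Dcn, the proteoglycan decorin that binds TGF-β, averaged 700.2 ± 35.6 CPM over the WT libraries and 1117 ± 188 CPM over the KO libraries (0.67, SE 0.19, edgeR adjusted p = 0.25). Groups did not overlap for 4 of the 5 tested, against 14.9% of all genes tested: Tgm2 was lower in KO, and Fn1, Dcn and the proteoglycan gene Bgn, named after its values were seen, were higher. DESeq2 called all 4, where it called 2.5% of the genes it tested.

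Of 9 integrin chains and surface anchors 6 were tested, with a median of -0.13. Hsp90b1, the endoplasmic reticulum chaperone GRP94 that GARP and integrins need to fold, fell to 1594 ± 53.5 CPM in KO against 2805 ± 108 CPM in WT (edgeR adjusted p = 0.019, log2 fold change -0.82, SE 0.14). That call was lost in each of the 6 fits without 1 library (adjusted p 0.050 to 0.18). Itgav, the αv chain that pairs with β8, had 344, 546 and 565 CPM in WT and 806, 558 and 541 CPM in KO (0.39, SE 0.25). Itgb3, a further partner of αv, had 41.3, 23.5 and 39.9 CPM in WT and 15.99, 0 and 0 CPM in KO. The groups did not overlap but the difference did not pass the test (edgeR adjusted p = 1.0). Its KO counts of 41, 0 and 0 lay below the modal counts of those libraries. Itgb6, Itga8 and Nrros, named after their values were seen, had 0 counts in all 6 libraries; Itgb6 encodes the β6 chain, a further partner of αv known for activating TGF-β, and Nrros a surface anchor related to GARP.

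Of 16 proteases of the precursor and the latent complex 9 were tested, with a median of 0.31. Adamts1, a secreted metalloprotease reported to act on latent TGF-β, rose from 73.0, 76.0 and 99.4 CPM in WT to 549, 358 and 557 CPM in KO (log2 fold change 2.56, SE 0.29, edgeR adjusted p = 0.00093), and was called in all 14 other settings. Htra1, a secreted serine protease, averaged 845 ± 129 CPM over the WT libraries and 1465 ± 106 CPM over the KO libraries (0.79, SE 0.18, edgeR adjusted p = 0.072), and the groups did not overlap. Htra1 was called in 5 of the 14 other settings, DESeq2 and limma-voom among them, and in none of the 6 fits without 1 library. Mmp13, a collagenase, overlapped between groups (-0.84, SE 0.77). Of 6 other thrombospondins and receptors only Cd47, a surface receptor of thrombospondin 1, was tested, at 141 ± 7.34 CPM in WT and 163 ± 44.1 CPM in KO.

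Of 18 receptors, Smads and their regulators 14 were tested, none called, with 7 positive and 7 negative fold changes and a median of 0.10. The 3 with the smallest p were Smurf1, a ubiquitin ligase of the pathway (0.73, SE 0.59), and the Smad corepressors Ski (2.31, SE 2.10) and Skil (0.35, SE 0.54). Of the 22 genes listed as induced by TGF-β that are reported here, 13 were tested and none of these was called by edgeR. There were 8 positive and 5 negative fold changes, with a median of 0.36. Whether TGF-β induces the genes of this list, Id1 among them, in ID8 cells was not tested. Groups did not overlap for 7 of the 13, 5 of them higher and 2 lower in KO, against 6.94% and 7.93% of all genes tested. Fn1 is among the higher ones and was also counted among the matrix partners above. This list too was chosen with earlier results of these data known, so these shares are a description. The 2 lower ones, named after their values were seen, were the collagen gene Col1a1 and Id1, an inhibitor of helix-loop-helix factors. Col1a1 had 73.0, 85.4 and 42.8 CPM in WT and 0.390, 16.3 and 1.86 CPM in KO. Its KO counts of 1, 38 and 6 lay below the modal counts of those libraries. Id1 had 237, 219 and 174.6 CPM in WT and 74.5, 87.3 and 174.4 CPM in KO. Other settings did call genes of this list: DESeq2 called Ccn2, Col1a1, Fn1, Lox and Vim, the fit with no count filter Ccn2, Fn1, Lox and Tpm1, the fit on modal counts Col1a1, Fn1 and Lox, limma-voom Tpm1 and Vim, the replicate block Lox, and the fit without WT replicate 1 Tpm1. Lox, which crosslinks collagen and elastin, averaged 98.4 ± 45.3 CPM over the WT libraries and 297 ± 57.1 CPM over the KO libraries (1.59, SE 0.38, edgeR adjusted p = 0.11). Ccn2, which encodes the matricellular protein CTGF, had 221, 324 and 147 CPM in WT and 470.5, 390 and 528 CPM in KO (log2 fold change 1.0, SE 0.29, edgeR adjusted p = 0.29). The summed level of these 22 genes was 4049 to 4946 CPM in WT and 5835 to 6876 CPM in KO, most of it from the intermediate filament gene Vim, with a mean of 2802 CPM over WT libraries and 3660 CPM over KO libraries. The levels of Krt18, Krt19 and Msln, markers of the line, moved with the groups as well, with log2 fold changes of -1.74, -0.92 and 1.05, and their part in these differences was not tested.

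**Figure D5:**
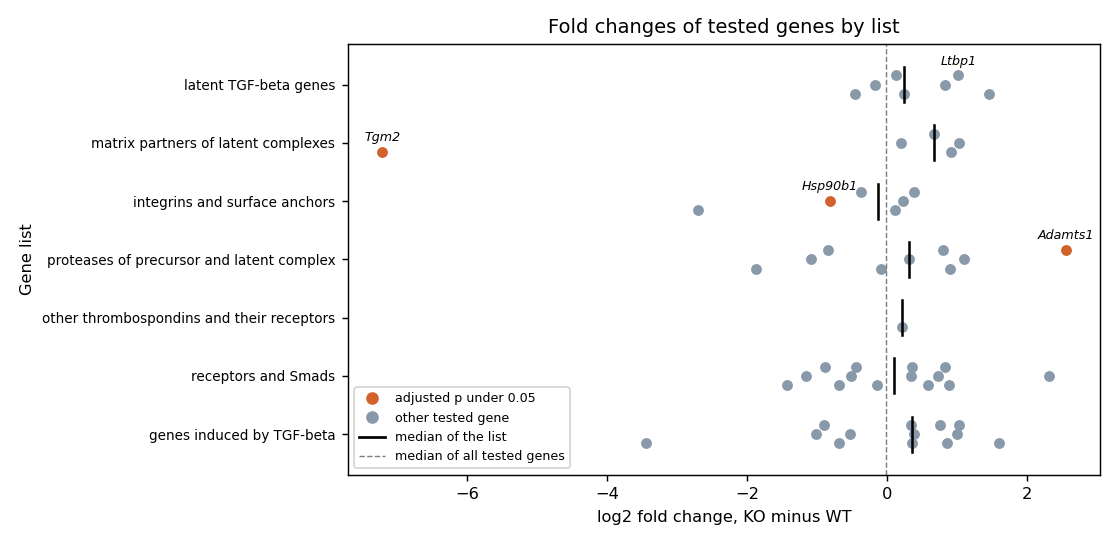
Log2 fold change, KO minus WT, of every tested gene in each list (points); orange marks an edgeR adjusted p under 0.05, short lines the median of each list and the dashed line the median of all tested genes, -0.016. Of the orange points, Adamts1 lies to the right and Tgm2 and Hsp90b1 to the left, and no point of the latent TGF-β genes is orange.

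Ltbp1 had the highest mean count of the set, 769.5 per library, and its profile over the 6 libraries was set against 3256 tested genes of at least 50 CPM. The nearest were Med14, a Mediator subunit, Unc5b, a netrin receptor, and Laptm4a, a lysosomal membrane protein, whose log2(CPM + 1) profiles, each centred on its mean, differed from that of Ltbp1 by a root mean square of 0.13, 0.14 and 0.16. Med14 had 76.0, 68.0 and 33.5 CPM in WT and 110.4, 112 and 117 CPM in KO, so WT replicate 3 was its lowest library too. With 6 libraries, such likeness is a description.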

How the data were processed

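The authors deposited whole-number counts per Ensembl gene, 1 column per library, not normalized. Per the labels' protocols, adapters were trimmed, fragments of 25 to 34 nt kept, rRNA and tRNA taken out by Bowtie, and what was left mapped by HISAT2 (genome, GRCm38) and Bowtie (transcriptome). The submitters' processing notes list featureCounts and DESeq2 too, with no role. The sources used here give no version, annotation, strand setting or duplicate handling, so amplified fragments may be counted repeatedly, and limits from counts cover counting error only. GENCODE M21 matched 53360 identifiers.

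The test was edgeR's quasi-likelihood test (4.0.16, robust, TMM, filterByExpr; R 4.3.3) on all 8200 genes kept, with Benjamini-Hochberg adjustment. Levels are CPM on TMM-adjusted sizes. SEs are the fold change over the root of F. The modal count was the peak of the smoothed histogram of gene counts from 8 to 150 (bandwidth 3). Other settings were DESeq2 1.42.0, limma-voom (limma 3.58.1), other scalings and filters, counts divided by the modal count, a replicate block and leaving out each library. Ratios used exact permutation over 20 assignments (scipy 1.17.1).

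Some genes, 1 of them in a list, are not reported here, and list counts leave that gene out. Members and lists were chosen with earlier results of these data known. Named are all members, Nat10, each list's called genes and its 3 with the smallest p, and the 3 profiles nearest to the member of highest mean count. Line markers are named from their list; others are marked as named after their values were seen.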

Additional observations from a re-analysis of the deposited data

How the results depend on the processing

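The number of latent TGF-β genes called was 0 in 13 of 14 other settings and 1 with DESeq2. The number of all genes called, 33, became 234 with DESeq2, 91 with no count filter and 114 on counts divided by the modal count, and 6 to 29 without single libraries. The number of other pathway genes called, 3, became 11, 8 and 7 in those settings, 5 with limma-voom, and 2 to 3 without single libraries. Signs turned for Itgb8 with limma-voom (-1.02) and the replicate block (-0.66), and from -4.04 to 1.57 without single libraries; for Nat10 with limma-voom (0.019), library totals (0.026) and modal counts (0.077), and from -0.35 to 0.35 without single libraries. Without single libraries Tgfb2 ran from -0.74 to 0.75, Tgfb3 from -0.95 to 0.66, Cd47 from -0.024 to 0.35 and Skil from -0.019 to 0.63. Tgm2 lost its call with limma-voom (adjusted p = 0.098). The replicate block called 38 genes, and Ltbp1 had an edgeR adjusted p of 0.20 there. Deviations of same-numbered libraries from their group means correlated at -0.017, -0.0026 and -0.0066, so no pairing by number was seen. The spread between libraries was large (edgeR common coefficient of variation 0.99) and could hide a pairing, so this check cannot exclude one. With library totals 27 genes were called higher and 16 lower, against 15 and 18, and the median of all genes moved from -0.016 to 0.093. Only Ltbp1 and Ltbp3 averaged above 6 modal counts, with Thbs1 next at 5.78. Low counts or the spread between libraries limit what can be seen of the other 8 genes. The cause of these changes was not tested.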
